A study of Mus musculus with 8 samples.

Results

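The genes described here are 41 genes of mitosis: the kinases and cyclins that start it, the kinetochore and spindle proteins that move chromosomes, the checkpoint that holds cells back, and the proteins that cut the cell apart. They were chosen by name, with earlier results of these data known, as the genes whose RefSeq accessions on the array match the 41 symbols. They make up 41 of the 20284 named genes with a probe and 41 of the 17740 genes tested. All 41 passed the filter on dim probes, Cenpf through its Control arrays alone.

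In a dividing cell, cyclin B bound to the kinase CDK1 drives entry into mitosis, and the kinetochores then tie each chromosome to the microtubules of the spindle. The spindle checkpoint blocks the anaphase-promoting complex (APC/C, a ubiquitin ligase) until every chromosome is attached, after which cyclin B is destroyed and a contractile ring divides the cell. These genes are transcribed late in the cell cycle, and in skin the dividing cells are largely basal keratinocytes of the epidermis and the hair matrix cells of growing follicles.

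Whole mouse skin was profiled on 8 Agilent 1-colour arrays, 4 labelled Control and 4 labelled DTG, an abbreviation left unexplained in the labels. By its title the series concerns overexpression of Musashi1 (gene Msi1), which binds RNA. All 8 samples are labelled male, and strain, age, promoter of any transgene and treatment are not given in the sources used here. The labels do not say whether the samples of a group came from separate animals, so p-values measure the spread among these samples, part of which may be technical. Keratinocyte markers were bright on every array: the mean level of the basal list was 3.08 or more and that of the suprabasal list 3.02 or more, on the scale given below.

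Some features of the arrays come before the results. An Msi1 probe (A_55_P2062688) read -5.92 to -1.48 on the Control arrays and 3.85 to 4.16 on 3 DTG arrays, its spot on DTG 1 being flagged as an outlier, while the other Msi1 probe (A_51_P296866) overlapped between the groups. The share of probes well above background was 79.5% to 85.1% on the Control arrays and 68.8% to 71.6% on the DTG arrays, and negative-control spots were brighter on the DTG arrays (-7.70 to -7.45, against -9.44 to -8.57). All arrays lay on 1 slide. Going by the position numbers of the scans, Control lay in row 1 and DTG in row 2, so the group and the slide row cannot be told apart. Against the male label, Xist, which silences an X chromosome in female cells, was high and the Y-linked Eif2s3y low on 5 arrays (Control 2 and 4, DTG 1, 3 and 4), with the reverse on 3 (Control 1 and 3, DTG 2). Throughout, a level is the log2 signal of a probe minus the 75th percentile of its array, and a log2 fold change is the DTG mean minus the Control mean with its standard error (SE) from the fit.

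Most of the 41 genes were lower in DTG skin than in Control skin. Of the 41, 36 fell at a limma adjusted p under 0.05 (Benjamini-Hochberg over all genes tested), 0 rose and 5 were not called (Mad2l1, Ttk, Cdk1, Hmmr and Tpx2). Over all genes tested, 21.3% were called lower and 11.2% higher. The median log2 fold change of the 41 genes was -0.89, or 1.85-fold lower, and their changes ran from -1.44 for Bub1b to 0.45 for Ttk. The median over all genes was -0.15, with the 5th and 95th percentiles at -0.92 and 0.86, and 37 of the 41 genes (90.2%) lay below it. At 2-fold or more, 15 of the 41 fell, against 3.35% of all genes. In 36 of the 41 every measured DTG array lay below every Control array, which held for 23.2% of all genes. These are not the same 36 genes as those called. They include Cdk1, which was not called and was measured on 2 DTG arrays only, and leave out Kif2c, which was called with overlapping groups. Hmmr was the 1 member with the groups apart in the other direction, which held for 2024 of the 17740 genes tested. Cenpf is counted among the 36 called, the 15 at 2-fold and the 36 without overlap, although its DTG level is a bound. Among the 40 members well above background on all 8 arrays, 35 were called lower, against 21.5% of all genes under that filter. At 2-fold or more, 14 of the 40 fell, and the share of all genes was not counted there. In RNA of whole tissue, fewer dividing cells and less RNA per dividing cell cannot be told apart.

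The count of calls changed with the scaling between arrays. When arrays were scaled on their spike-in spots (the E1A probes), the median of all genes moved from -0.15 to 0.33, and of the 41 genes 18 were called lower, 1 higher (Hmmr) and 33 lay below 0. On that scale 2.39% of all genes were called lower and 30.5% higher. This scaling shifts all genes of an array by 1 constant, so the median of the 41 relative to all genes, -0.74, is the same by construction. The level of the spike-in spots ran from -1.22 (Control 4) to -0.60 (Control 1) over the Control arrays (SD 0.26, n = 4). Over the DTG arrays it ran from -1.40 to -1.26 (SD 0.06, n = 4). Each of the 41 genes had a larger SE on the spike-in scale, for example 0.23 against 0.14 for Bub1b. The parts of the shift and of this spread in the lower count were not tested. With no scaling, 30 of the 41 were called lower, against 9.0% of all genes. Under quantile scaling the count was 36, against 18.6% of all genes, and under median scaling it was also 36, against 22.9%.

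**Figure D1:**
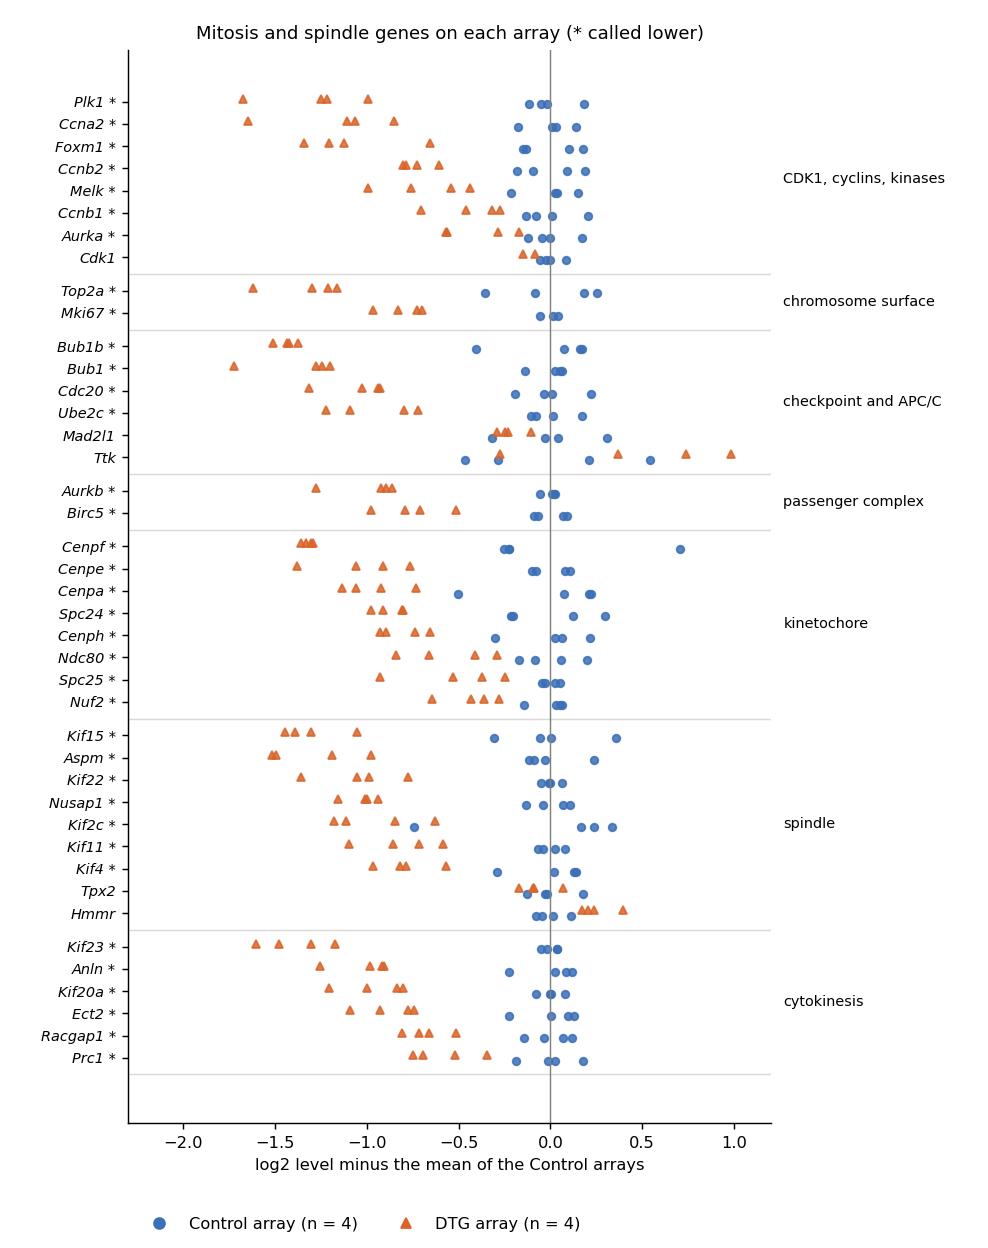
Level of each of the 41 genes on each array, as the log2 level minus the mean of the Control arrays, ordered by role. Circles are Control arrays and triangles DTG arrays, 4 of each except for Mki67 (3 Control) and Cdk1 (2 DTG), and an asterisk marks the 36 genes called lower; Ttk and Hmmr lie to the right.

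All 4 DTG arrays read low for these genes. The median level of the 41 genes was -0.10, -0.01, 0.23 and 0.26 on Control 1 to 4 and -0.62, -0.73, -0.60 and -0.53 on DTG 1 to 4, so the groups did not overlap (0.10 ± 0.18 against -0.62 ± 0.08, SD, n = 4 each). DTG 2 was the lowest DTG array for 26 of the 41 genes, among them Cdk1, which was measured on DTG 2 and 4 only. Over all genes with 4 DTG values, DTG 2 was the lowest for 32.7%. Without DTG 2, 33 of the 41 were called lower, against 14.8% of all genes. At 2-fold or more, 10 of the 33 fell, and the share of all genes at that size was not counted for this run. Across the runs that each left out 1 array, 31 (without Control 3) to 36 (without DTG 3) of the 41 genes were called lower. The share of all genes called lower was 14.4% without Control 3 and 18.4% without DTG 3. In every one of the runs without 1 array, 31 of the 41 genes were called.

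DTG 2 is also the 1 DTG array with low Xist. Among the arrays with high Xist (2 Control, 3 DTG), 28 of the 41 genes were called lower, with a median of -0.83, against 8.08% of all genes. Among those with low Xist (2 Control, 1 DTG, the lone array assumed to vary like the others), 10 were called lower, with a median of -1.05, against 1.90% of all genes. With the Xist class as a covariate, 36 of the 41 were called lower, against 21.8% of all genes. A test of whether the DTG effect differed between the classes called 0 of 17635 genes (0%, limma), and the smallest adjusted p among the 41 genes was 0.68. At an unadjusted p under 0.05 it named 5 of the 41 (12.2%, against 6.42% of all genes): Spc25, Bub1, Plk1, Cdc20 and Melk, all with the larger fall among the arrays of low Xist. DTG 2 and the low Xist class cannot be told apart here.

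Genes of this kind are known to share promoter elements: the cell cycle genes homology region (CHR), with the core letters TTTGAA, which is bound by MuvB complexes that repress in resting cells and activate in G2 and mitosis, and CCAAT boxes, which are bound by NF-Y. RefSeq promoter windows (assembly GRCm38.p6, 250 bases before and 50 after the start) were found for 35 of the 41 genes, and those of Ccna2, Foxm1, Kif20a, Tpx2, Spc24 and Aurkb were not in the table. Shown here, 5′ to 3′ on the gene's strand, are the 120 bases before the start for the 6 genes with the smallest p that have an entry, which fell together in DTG skin. Capitals mark CCAAT boxes (CCAAT, or ATTGG for the other strand).
Kif23 (chr9:61946800-61946919, minus strand): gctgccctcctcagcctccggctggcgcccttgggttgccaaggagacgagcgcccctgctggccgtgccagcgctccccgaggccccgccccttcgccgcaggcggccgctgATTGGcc
Nusap1 (chr2:119618178-119618297, plus strand): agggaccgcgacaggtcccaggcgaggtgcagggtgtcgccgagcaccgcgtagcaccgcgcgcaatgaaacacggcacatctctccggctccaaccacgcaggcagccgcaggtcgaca
Bub1b (chr2:118598091-118598210, plus strand): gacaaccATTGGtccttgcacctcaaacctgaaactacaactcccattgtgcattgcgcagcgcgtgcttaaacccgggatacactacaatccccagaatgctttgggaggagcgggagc
Bub1 (chr2:127831860-127831979, minus strand): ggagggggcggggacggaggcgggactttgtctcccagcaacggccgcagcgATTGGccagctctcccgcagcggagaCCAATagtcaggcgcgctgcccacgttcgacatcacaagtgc
Aspm (chr1:139454653-139454772, plus strand): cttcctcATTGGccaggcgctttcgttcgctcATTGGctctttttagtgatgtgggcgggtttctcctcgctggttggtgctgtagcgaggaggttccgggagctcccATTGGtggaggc
Plk1 (chr7:122159315-122159434, plus strand): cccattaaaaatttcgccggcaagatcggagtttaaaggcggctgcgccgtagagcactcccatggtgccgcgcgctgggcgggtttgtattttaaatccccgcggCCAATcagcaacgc
With the start base as position 1 and the base before it as -1, Bub1 has CCAAT boxes at -68 and -42, Aspm at -113, -88 and -12, Plk1 at -14, Kif23 at -7 and Bub1b at -113. Nusap1 has neither motif in its window.

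The CHR letters of 4 of these 6 genes lie just after the start, and they are shown with up to 10 bases on either side, the motif in capitals.
Kif23 (chr9:61946782-61946807, minus strand): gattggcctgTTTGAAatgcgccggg
Bub1b (chr2:118598241-118598260, plus strand): agacgttaaaTTTGAAactt
Aspm (chr1:139454769-139454794, plus strand): aggcgcgataTTTGAAccgagcaaaa
Plk1 (chr7:122159455-122159480, plus strand): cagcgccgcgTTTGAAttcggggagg
The positions are 3 in Kif23, 41 in Bub1b, 7 in Aspm and 31 in Plk1.

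The promoters of Ccnb2, which fell, and of Cdk1, which was not called, were added after their values were seen, because both carry several of the same motifs. Capitals mark CCAAT boxes and, in Cdk1, TTTGAA.
Ccnb2 (chr9:70421555-70421674, minus strand): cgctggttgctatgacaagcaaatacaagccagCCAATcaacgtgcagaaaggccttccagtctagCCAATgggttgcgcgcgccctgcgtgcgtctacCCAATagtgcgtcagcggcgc
Cdk1 (chr10:69352913-69353032, minus strand): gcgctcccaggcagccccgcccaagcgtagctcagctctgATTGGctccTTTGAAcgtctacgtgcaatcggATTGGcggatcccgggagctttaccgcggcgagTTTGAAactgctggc
In these 120 bases Ccnb2 has 3 CCAAT boxes, at -87, -54 and -21, and its window also holds TTTGAA farther upstream, at -167, and after the start, at 5 (cggcgcggtaTTTGAAtcgcggaccg, chr9:70421535-70421560, minus strand). Cdk1 has CCAAT boxes at -80 and -48 and TTTGAA at -71 and -15, with a further CCAAT box upstream at -208.

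Searched on both strands, TTTGAA was present in 26 of the 35 windows (74.3%), against 20.2% of all 27025 genes with a window, and within 50 bases of the start in 24 (68.6%), against 5.72%. At least 2 CCAAT boxes were present in 18 (51.4%), against 13.3%. A pair of CCAAT boxes on the same strand and 31 to 34 bases apart was present in 7 (20.0%), against 1.04%. The related letters TTTAAA were in 10 (28.6%), against 14.9%. The limit of 50 bases and the spacing of the pair were chosen after the sequences were seen. A gene with more than 1 window counted once, if any window held the motif. Neighbouring matches may share a base, and a match is a description of letters, not a bound site.

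Other gene groups were searched the same way, as a description with no test. TTTGAA near the start was present in 40.7% of 59 mitotic genes outside the 41 and in 42.9% of 7 condensin genes, but in 6.90% of 29 DNA replication genes and 0% of 14 genes of the APC/C list. Among all other genes called lower the share was 4.42%, among those called higher 3.36%, and among those not called 3.96%. Of the 5 members not called, Cdk1, Hmmr and Ttk have TTTGAA near the start and at least 2 CCAAT boxes, Mad2l1 has neither, and Tpx2 has no window in the table. Median GC content was 58.3% over the 35 windows and 52.7% over all windows.

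**Figure D2:**
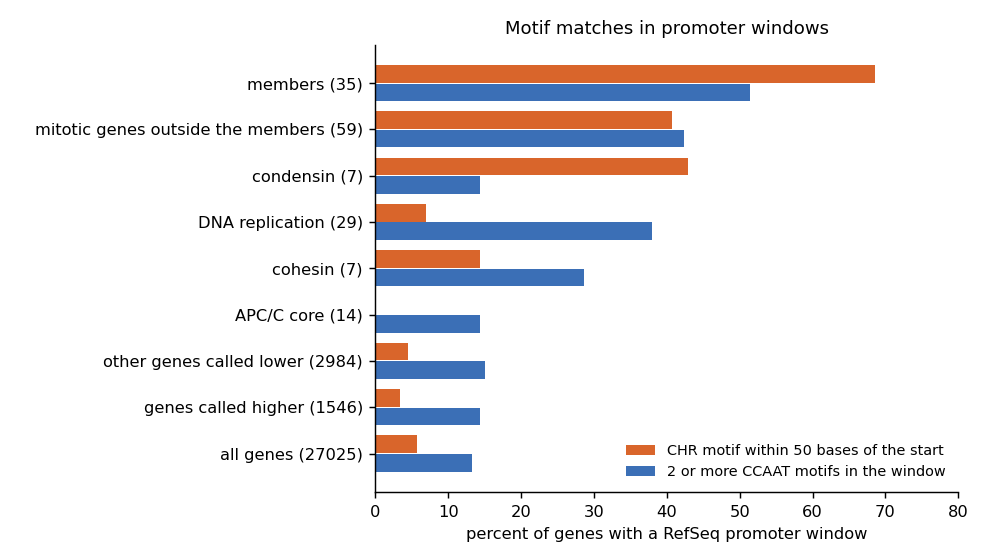
Percent of genes whose RefSeq promoter window holds TTTGAA within 50 bases of the start (upper bars) or 2 or more CCAAT boxes (lower bars), with the number of genes with a window in brackets. The 35 genes of mitosis with a window reach 68.6% and 51.4%, and all genes 5.72% and 13.3%.

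The kinases, cyclins and the transcription factor that drive entry into mitosis fell in 7 of 8 cases, with a median log2 fold change of -0.71. Scaled on the spike-in spots, 3 of the 8 were called lower and 5 lay below 0. The largest fall was that of Plk1, the polo kinase needed for centrosome maturation and spindle assembly, whose promoter is shown above. Plk1 read -0.44, -0.38, -0.15 and -0.35 on Control 1 to 4 and -1.58, -2.00, -1.32 and -1.55 on DTG 1 to 4. Every DTG array lay below every Control array, and Plk1 fell by 1.28 (SE 0.15, 2.43-fold lower, limma adjusted p = 0.00069).

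Ccna2, the cyclin of S phase and G2, read 1.03, 1.22, 1.24 and 1.35 on Control 1 to 4 and 0.14, -0.44, 0.36 and 0.10 on DTG 1 to 4. It fell by 1.17 (SE 0.17, adjusted p = 0.0018), with DTG 2 the lowest array and no overlap. Ccnb2, a mitotic B-type cyclin whose promoter is shown above, read 0.01, 0.38, 0.28 and 0.10 on Control 1 to 4 and -0.60, -0.42, -0.54 and -0.61 on DTG 1 to 4. It fell by 0.73 (SE 0.11, adjusted p = 0.0020), and here DTG 2 was the highest of the DTG arrays. Foxm1, the transcription factor that activates many of these genes in G2, fell by 1.08 (adjusted p = 0.0020), and the kinase Melk fell by 0.68 (adjusted p = 0.0084).

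The B-type cyclin Ccnb1 and the centrosomal kinase Aurka changed least among the drivers that were called. Ccnb1 fell by 0.44 (adjusted p = 0.028) and Aurka fell by 0.40 (adjusted p = 0.038). On the spike-in scale both were slightly above 0 (0.034 and 0.077). With the slide column as a block, neither was called (adjusted p = 0.080 for Ccnb1 and 0.100 for Aurka, with log2 fold changes of -0.44 and -0.40). Aurka was no longer called when any 1 of 7 arrays, all but DTG 3, was left out (adjusted p 0.054 to 0.096, log2 fold change -0.44 to -0.34). Ccnb1 was no longer called without Control 1, Control 3, Control 4, DTG 1 or DTG 2 (adjusted p 0.051 to 0.065, log2 fold change -0.47 to -0.35).

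Cdk1, the kinase at the centre of mitotic entry, was not called, and its probes disagreed. The brightest read 0.37, 0.26, 0.23 and 0.29 on Control 1 to 4 and 0.14 and 0.20 on DTG 2 and 4, the spots of DTG 1 and DTG 3 being left out as outliers, and its log2 fold change of -0.12 (SE 0.11, adjusted p = 0.44) rests on 2 DTG arrays. A dimmer probe (A_55_P2016652) read -0.41, -0.56, -0.57 and -0.39 on Control 1 to 4 and -0.53, -0.46, -0.38 and -0.38 on DTG 1 to 4, with overlapping groups and a log2 fold change of 0.04 (SE 0.09). The dimmest (A_55_P2016647) read -3.32, -3.45, -3.49 and -3.85 on Control 1 to 4 and -3.86, -4.06, -3.83 and -4.18 on DTG 1 to 4, with every DTG array below 3 of the 4 Control arrays and a log2 fold change of -0.45 (SE 0.14, adjusted p = 0.039 in the fit over probes). Averaged over the 3 probes the value was -0.56 (adjusted p = 0.049), but that mean lacks the brightest probe on DTG 1 and DTG 3, so it does not compare like with like.

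Both genes of the chromosome surface and its topology fell; on the spike-in scale 1 of the 2, Top2a, was called. Top2a, the topoisomerase that untangles sister chromosomes, read -0.34, -0.07, 0.20 and 0.27 on Control 1 to 4 and -1.15, -1.61, -1.29 and -1.20 on DTG 1 to 4. It fell by 1.33 (SE 0.16, 2.51-fold lower, adjusted p = 0.00085), with no overlap. Mki67 encodes Ki-67, the protein that coats mitotic chromosomes and is used as a marker of cycling cells. It read 3.0, 2.97 and 2.90 on Control 1, 3 and 4, its spot on Control 2 being left out as an outlier, and 2.13, 1.99, 2.26 and 2.23 on DTG 1 to 4. It fell by 0.81 (SE 0.10, 1.75-fold lower, adjusted p = 0.0015), and its other probe, measured on all 8 arrays, gave -0.82 (SE 0.12).

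Of the 6 genes of the spindle checkpoint and its target APC/C, 4 fell, also on the spike-in scale, and the median of the 6 was -1.01. Bub1b encodes BubR1, part of the complex that restrains the APC/C, and had the largest change of the 41 genes. It read -1.33, -0.86, -0.77 and -0.76 on Control 1 to 4 and -2.37, -2.44, -2.36 and -2.31 on DTG 1 to 4. It fell by 1.44 (SE 0.14, 2.71-fold lower, adjusted p = 0.00030), with a narrow spread over the DTG arrays (SD 0.06, n = 4), while Control 1 stood below the other Control arrays. Bub1, the kinetochore kinase of the same checkpoint, read -0.25, -0.41, -0.22 and -0.21 on Control 1 to 4 and -1.55, -2.00, -1.48 and -1.52 on DTG 1 to 4. It fell by 1.36 (SE 0.13, 2.57-fold lower, adjusted p = 0.00031), with DTG 2 below the other DTG arrays.

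Cdc20, the activator through which the checkpoint controls the APC/C, read 2.14, 1.73, 1.89 and 1.93 on Control 1 to 4 and 0.98, 0.61, 0.99 and 0.89 on DTG 1 to 4. It fell by 1.05 (SE 0.13, 2.07-fold lower, adjusted p = 0.00078), and the groups did not overlap. Ube2c, the ubiquitin-conjugating enzyme that works with the APC/C, fell by 0.96 (adjusted p = 0.0015). The checkpoint proteins Mad2l1 and Ttk were not called. Mad2l1, which encodes Mad2, had a log2 fold change of -0.22 (adjusted p = 0.24; 0.25 on the spike-in scale). Ttk, which encodes the kinase Mps1, had the highest log2 fold change of the 41 at 0.45, but with the widest spread (SE 0.31, adjusted p = 0.28) and overlapping groups.

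Both genes of the chromosomal passenger complex, which corrects faulty attachments, fell, with 1 of them, Aurkb, called on the spike-in scale. Aurkb, its kinase, read -1.41, -1.33, -1.34 and -1.33 on Control 1 to 4 and -2.28, -2.63, -2.22 and -2.25 on DTG 1 to 4. It fell by 0.99 (SE 0.11, 1.99-fold lower, adjusted p = 0.00054); the spread over the Control arrays was narrow (SD 0.04, n = 4) and DTG 2 stood below the other DTG arrays. Birc5 encodes survivin, which targets the complex to centromeres. It read 2.62, 2.46, 2.60 and 2.44 on Control 1 to 4 and 1.82, 1.56, 2.02 and 1.74 on DTG 1 to 4. It fell by 0.75 (SE 0.11, 1.68-fold lower, adjusted p = 0.0023), and its 2 dimmer probes gave larger falls of 1.32 (SE 0.25) and 1.14 (SE 0.20).

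All 8 centromere and kinetochore genes fell, with a median of -0.84; on the spike-in scale 2 were called and 7 lay below 0. Cenpe, the kinetochore motor that moves chromosomes to the spindle equator, read 0.92, 0.71, 0.73 and 0.89 on Control 1 to 4 and -0.25, -0.57, 0.04 and -0.10 on DTG 1 to 4. It fell by 1.03 (SE 0.14, 2.04-fold lower, adjusted p = 0.0013), with no overlap. Spc24, a subunit of the NDC80 complex that grips microtubules, read 0.59, 0.25, 0.77 and 0.26 on Control 1 to 4 and -0.51, -0.34, -0.34 and -0.45 on DTG 1 to 4. It fell by 0.88 (SE 0.13, 1.84-fold lower, adjusted p = 0.0022), again with no overlap.

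Cenpf, a large protein of the outer kinetochore, was dim. It read -4.36, -4.39, -4.36 and -3.43 on Control 1 to 4 and -5.49, -5.43, -5.44 and -5.47 on DTG 1 to 4, and its probe was well above background on 4 Control and 0 DTG arrays. The DTG level is therefore a bound, and against the mean of the 4 Control arrays Cenpf was at least 2.38-fold lower in DTG. The adjusted p of the fit (0.0027) rests on DTG signals that are not well above background, and Cenpf was kept through its Control arrays, so that p is no independent support. The bound sets the Control mean against the DTG mean, each DTG array entering at its lowest signal well above background or at the Cenpf signal, whichever was higher. Set at this bound, Cenpf still lies below the median of the kinetochore genes and past 2-fold, so neither count nor median moves. Control 4 stood above the other Control arrays and raises the Control mean on which this bound rests.

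Of the other NDC80 subunits, Spc25 fell by 0.52 (adjusted p = 0.026), Ndc80 by 0.55 (adjusted p = 0.021) and Nuf2 by 0.43 (adjusted p = 0.016; 0.042 on the spike-in scale). Cenpa, the histone variant that marks centromeres, fell by 0.96 (adjusted p = 0.0050), and Cenph, of the inner kinetochore, fell by 0.81 (adjusted p = 0.0027). Ndc80 was no longer called without Control 3 (-0.48, adjusted p = 0.056). Spc25 was no longer called without Control 1, Control 3 or DTG 4 (-0.52 to -0.50, adjusted p 0.054 to 0.061).

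Of 9 spindle motors and spindle-associated genes, 7 fell, and the median of the 9 was -0.94; on the spike-in scale 4 were called lower, 1 higher, and 7 lay below 0. Nusap1, a microtubule-bundling protein of the spindle, read -0.29, -0.20, -0.09 and -0.05 on Control 1 to 4 and -1.10, -1.32, -1.16 and -1.17 on DTG 1 to 4. It fell by 1.03 (SE 0.09, 2.04-fold lower, adjusted p = 0.00024), with a narrow spread in both groups. Aspm, which acts at spindle poles, read -1.35, -1.38, -1.29 and -1.02 on Control 1 to 4 and -2.78, -2.76, -2.24 and -2.45 on DTG 1 to 4. It fell by 1.30 (SE 0.15, 2.46-fold lower, adjusted p = 0.00060), with no overlap.

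Kif15, a kinesin that keeps the spindle bipolar, read -1.17, -0.86, -0.92 and -0.50 on Control 1 to 4 and -1.92, -2.31, -2.25 and -2.16 on DTG 1 to 4. It fell by 1.30 (SE 0.15, 2.46-fold lower, adjusted p = 0.00073). Kif11 (Eg5), the main motor that separates spindle poles, fell by 0.81 (adjusted p = 0.0020). The chromosome-arm kinesins Kif22 and Kif4 fell by 1.04 (adjusted p = 0.00079) and 0.79 (adjusted p = 0.0032). Kif2c (MCAK), which takes microtubules apart at kinetochores, fell by 0.94 (SE 0.25, adjusted p = 0.020) with overlapping groups, Control 1 being far below the other Control arrays. Its call was lost without Control 3 (-0.89, adjusted p = 0.052) and without DTG 2 (-0.86, adjusted p = 0.055).

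Hmmr and Tpx2, both microtubule-binding proteins that act in spindle assembly, were not called lower. Hmmr read 1.05, 0.89, 0.86 and 0.95 on Control 1 to 4 and 1.15, 1.34, 1.11 and 1.18 on DTG 1 to 4. The DTG arrays were all above the Control arrays, but the log2 fold change of 0.25 (SE 0.09) did not pass (adjusted p = 0.060). It passed on the spike-in scale (0.73, adjusted p = 0.0081), under quantile scaling (0.28, adjusted p = 0.041) and without Control 1 (0.29, adjusted p = 0.048). Tpx2, which activates Aurora A on the spindle, had a log2 fold change of -0.07 (adjusted p = 0.60; 0.40 on the spike-in scale) with overlapping groups.

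All 6 genes of the central spindle and cytokinesis fell, with a median of -0.92; on the spike-in scale 3 were called and 6 lay below 0. Kif23 (MKLP1) and Racgap1 form centralspindlin, which marks the plane of division, and Kif23 had the smallest p of the 41 genes. Kif23 read 1.25, 1.28, 1.34 and 1.34 on Control 1 to 4 and -0.17, -0.30, 0.00065 and 0.13 on DTG 1 to 4. It fell by 1.39 (SE 0.11, 2.62-fold lower, adjusted p = 0.00014), with a narrow spread over the Control arrays (SD 0.04, n = 4). Racgap1 fell by 0.67 (adjusted p = 0.0021).

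Kif20a (MKLP2), the kinesin that carries the passenger complex to the central spindle, read 0.39, 0.47, 0.55 and 0.47 on Control 1 to 4 and -0.37, -0.73, -0.33 and -0.53 on DTG 1 to 4. It fell by 0.96 (SE 0.11, 1.95-fold lower, adjusted p = 0.00060), with no overlap. Anln encodes anillin, the scaffold of the contractile ring. It read 1.03, 0.72, 0.97 and 1.06 on Control 1 to 4 and 0.04, -0.31, 0.03 and -0.04 on DTG 1 to 4. It fell by 1.01 (SE 0.12, 2.02-fold lower, adjusted p = 0.00071), also with no overlap. Ect2, the exchange factor that switches on RhoA at the division plane, fell by 0.89 (adjusted p = 0.0013), and Prc1, which bundles the central spindle's microtubules, fell by 0.58 (adjusted p = 0.0093).

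Where a gene had several probes, they mostly gave the same direction. The 41 genes have 56 probes, with more than 1 for 11 of the genes, and 55 probes passed the filter. In a fit over probes, 44 of the 55 were called lower and 0 higher, against 19.8% of all 23171 named probes called lower. Cdk1 was the 1 gene whose tested probes differed in sign.

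**Figure D3:**
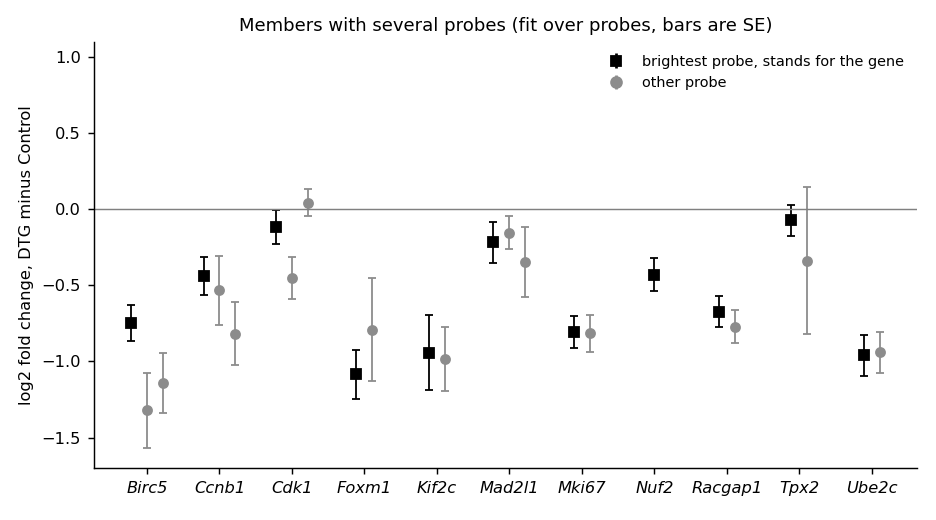
Log2 fold change of each tested probe of the 11 genes with more than 1 probe, with SE bars from the fit over probes. Squares are the brightest probe, which stands for the gene, and circles the others; Nuf2 has 1 tested probe, and 1 circle, of Cdk1, lies above 0.

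Other mitotic genes and the condensin subunits were also lower in DTG skin. Of 68 tested mitotic genes outside the 41, 37 (54.4%) were called lower and 0 higher, with a median of -0.52. Over all genes, 21.3% were called lower and 11.2% higher. The 3 with the smallest p were Cdca3 (-1.75), a trigger of mitotic entry, Cdca2 (-1.38), a chromatin-bound phosphatase regulator, and Cenpp (-1.34), an inner kinetochore protein. Scaled on spike-in spots, the list gave 7 lower (10.3%) and 12 higher (17.6%), with a median of -0.04, against 2.39% and 30.5% of all genes. Of 8 condensin subunits, which compact mitotic chromosomes, 6 (75%) fell and 0 rose, with a median of -0.49 (Smc4 -0.61, Ncapd2 -0.77, Ncaph -0.54). Scaled that way, 0 of the 8 were called in either direction and the median was -0.02.

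Of 15 genes of the APC/C list (core subunits and Fzr1), 2 (13.3%) fell and 0 rose, with a median of -0.08, against 21.3% and 11.2% of all genes. Anapc5 fell by 0.49 and Anapc10 fell by 0.71, and on the spike-in scale 6 of the 15 (40%) were called higher, against 30.5% of all genes. Of 12 cohesin genes, 4 (33.3%) fell and 2 rose (median -0.21), beside the same shares of all genes, 21.3% and 11.2%. The acetyltransferases that lock cohesin onto DNA went opposite ways: Esco1 rose by 1.19 and Esco2 fell by 1.02. Pds5a, a cohesin regulator, fell by 0.76. With spike-in scaling, 5 of the 12 (41.7%) were higher and 0 lower, against the same 30.5% and 2.39%.

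Of 36 tested genes of DNA replication, 14 (38.9%) fell and 2 rose, with a median of -0.23, against 21.3% and 11.2% of all genes. Lig1 (DNA ligase I) fell by 1.14, Pole (a replicative polymerase) by 1.07 and Tk1 (thymidine kinase) by 1.24. With spike-in scaling, 5 (13.9%) were lower and 7 (19.4%) higher, where all genes gave 2.39% and 30.5%. Of 22 transcription regulators of mitotic genes (the DREAM and MuvB subunits, B-Myb, E2F and NF-Y families), 7 (31.8%) fell and 6 rose, with a median of -0.04. Lin52, a MuvB subunit, rose by 1.08, while Rbl1 (p107) fell by 0.79 and Rb1 (the retinoblastoma protein) by 0.70. Of 13 G1 cyclins, their kinases and CDK inhibitors, 4 (30.8%) fell and 3 rose, with a median of -0.03. The CDK inhibitor Cdkn2c fell by 0.69, while the inhibitor Cdkn1a (p21) rose by 0.92 and the G1 kinase Cdk6 by 1.0. On the spike-in scale neither list had a gene called lower. There, 9 of the 22 (40.9%) and 4 of the 13 (30.8%) were called higher, against 30.5% of all genes. The lists were not tested against each other.

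**Figure D4:**
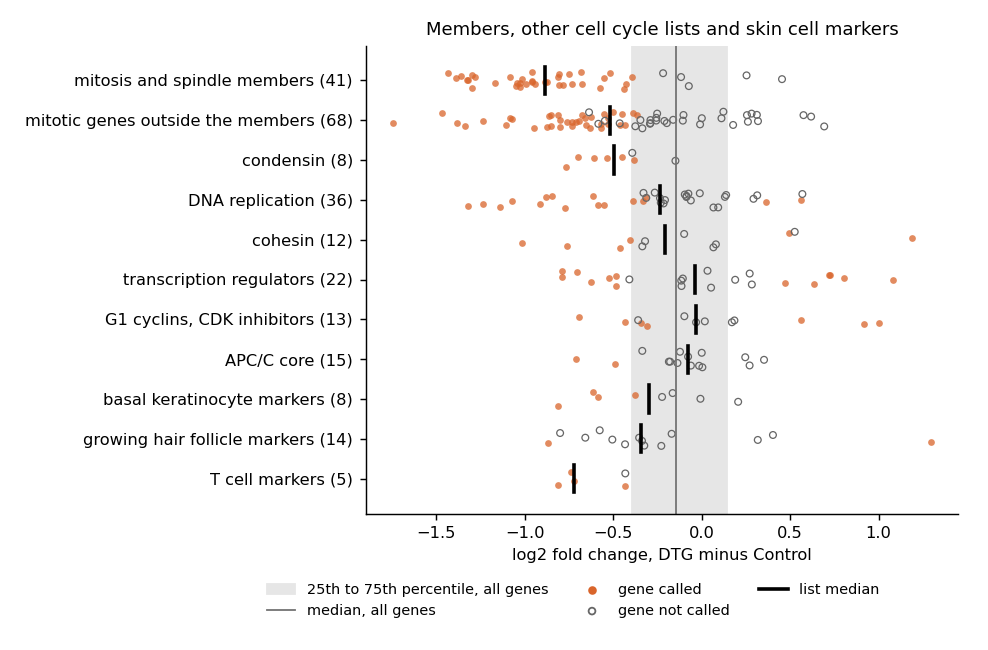
Log2 fold change of every tested gene of the 41, of related cell cycle lists and of skin cell markers, with the number of genes in brackets. Filled points are called genes, black bars are list medians, and the grey band spans the 25th to 75th percentile of all genes (-0.40 to 0.14); the medians of the first 3 lists and of the T cell markers lie left of the band.

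Markers of the skin's cell types were read beside these results, where 21.3% of all genes were called lower and 11.2% higher. Of 8 basal keratinocyte markers, 4 fell and 0 rose (median -0.30), among them Col17a1 (-0.61), Itgb4 (-0.81) and Krt5 (-0.59), and the mean level of the list was 3.32 to 3.72 on the Control arrays and 3.08 to 3.23 on the DTG arrays. On the spike-in scale 0 of the 8 were lower and 2 (25%) were higher, against 2.39% and 30.5% of all genes. Of 14 tested markers of the growing hair follicle, 1 fell and 1 rose (Krt84 -0.87, Tchh 1.30), and their mean level overlapped between the groups, at -2.34 to -1.81 and -2.63 to -2.14. Of 7 tested suprabasal markers, 3 fell and 1 rose, with overlapping mean levels of 3.22 to 3.75 and 3.02 to 3.39.

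Markers of T cells, which can also divide in skin, were mostly lower in DTG skin. Of 5 tested T cell markers, 4 fell and 0 rose (median -0.72), among them Cd3g (-0.81), Cd3e (-0.74) and Cd3d (-0.72), and their mean level was -0.12 to 0.17 on the Control arrays and -0.84 to -0.40 on the DTG arrays. None of the 5 was called with spike-in scaling (0 of 5). The part of the basal and T cell markers in the fall of the mitotic genes was not tested. Among the other lists, fell and rose counts were 2 and 1 of 6 for the hair follicle bulge, 1 and 2 of 7 for the sebaceous gland, 3 and 0 of 7 for fibroblasts, 1 and 0 of 6 for endothelial cells and 3 and 0 of 6 for melanocytes. They were 4 and 0 of 6 for adipocytes and 1 and 0 of 6 for skeletal muscle, beside 21.3% of all genes called lower and 11.2% higher. No tested marker was called for macrophages and Langerhans cells (6), neutrophils (5) or mast cells (6). Several of these counts moved with the scaling. Of the 7 fibroblast markers, 0 fell under quantile scaling or no scaling, and 5 fell under median scaling. Of the 6 adipocyte markers, 1 fell under quantile scaling or no scaling. Of the 6 melanocyte markers, 0 fell with no scaling. Of the 5 neutrophil markers, 3 rose on the spike-in scale.

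**Figure D5:**
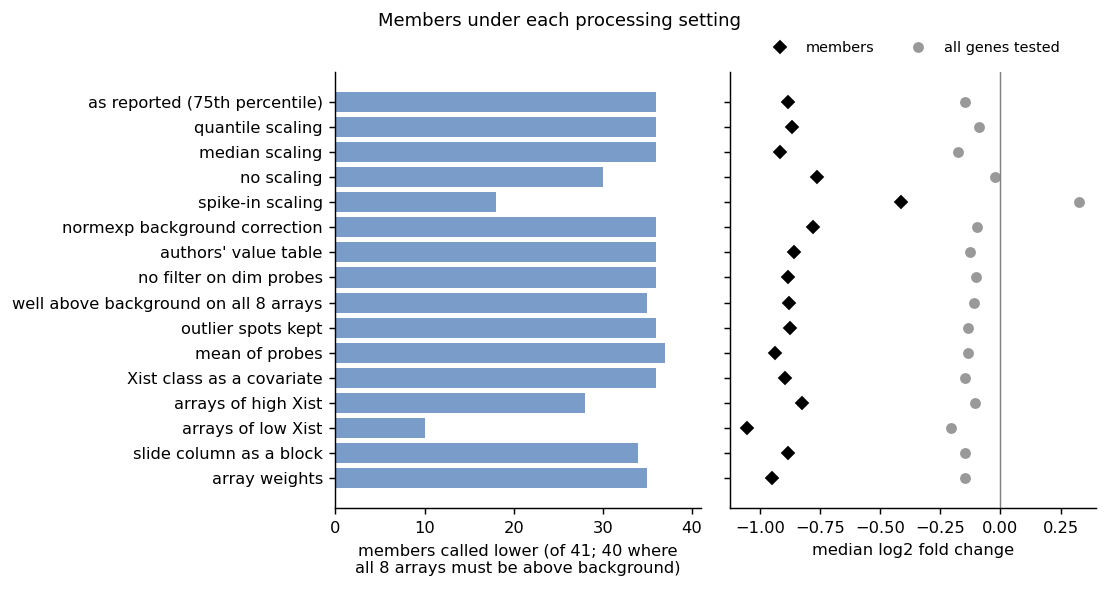
Number of the 41 genes called lower under each processing setting (left) and the median log2 fold change of the 41 genes and of all genes tested (right). The count is 36 as reported, 18 when arrays are scaled on spike-in spots and 10 among the arrays of low Xist, and the diamonds lie left of the circles in every setting.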

How the data were processed

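Whole-skin RNA of 4 Control and 4 DTG samples, grouped by the tissue label and numbered in accession order, was measured on 1-colour Agilent arrays. The deposited scanner tables hold linear intensity values per spot. They come from Agilent Feature Extraction, whose version is 11.5.1.1 in the file headers but 10.7 in the submitters' processing notes. The processed signal is the software's background-corrected intensity, per the file headers, and further deposited columns flag outliers and signals well above background. The authors' deposited value table holds linear intensity values; 99.6% of them equalled the processed signals within a relative 0.001, so it is neither log-transformed nor scaled. Its column medians were 851 to 1140.

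Probes were named by RefSeq accession without version (gene table of assembly GRCm38.p6), which named 26762 of 55681 probes. The log2 processed signal was set relative to the 75th percentile of its array's non-control probes, without outlier-flagged spots (0.55% of probe values), and spots of a probe were averaged. Probes well above background on at least 3 of 4 arrays of a group were kept, and the brightest stood for its gene. Groups were compared with limma 3.58.1 in R 4.3.3 (lmFit and eBayes, two-sided), and p-values were adjusted over 17740 genes. Precision is limited by the number of arrays; over all genes the median SE was 0.14. The script was tested on simulated data.

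The 41 genes and all lists were chosen with earlier results of these data known. Genes are named by a rule: all 41, with values on each array for the 3 of each role with the smallest adjusted p and for any gene whose probes differ in sign, and up to 3 genes of each other list. The design expected a mean or median spot signal for normexp, and the median was used. Alternatives were other scalings, normexp (offset 50), the authors' table, other filters and probe rules, Xist class, slide column, array weights and leaving out each array. Kif14, Gins3, Loricrin, Flg, Shh, Krt85, Trbc2, Trdc, Cd68 and Ly6g were not analysed here.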

Additional observations from a re-analysis of the deposited data

Results flagged for a closer look

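Dixon's ratio, the gap of a value to its nearest neighbour divided by the range of the 4 values, was taken for each group. Of 80 groups of 4 values (41 genes in each group, less 2 with a missing spot), 6 held a value whose ratio was above Dixon's 95% critical value for 4 samples. Chance flags about 1 in 20 groups. On DTG 2, Bub1 read -2.00 and Aurkb read -2.63, each below the other DTG arrays. On Control 1, Bub1b read -1.33 and Kif2c read -2.14, each below the other Control arrays. On Control 4, Cenpf read -3.43, above the other Control arrays, and on Control 2, Nuf2 read -1.03, below them. With the array concerned left out, 5 of these genes were still called lower (limma): Bub1 at -1.24, Aurkb at -0.90, Bub1b at -1.57, Kif2c at -1.19 and Nuf2 at -0.48. For Cenpf no such value is given, since its DTG level is a bound.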

How the results depend on the processing

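The median of the 41 genes relative to all genes lay between -0.85 and -0.68 in every setting run (the scalings that shift a whole array cannot change it), and the count called lower was 28 to 37 except when arrays were scaled on spike-in spots (18) and among the arrays of low Xist (10, with 3 arrays). Of the 36 genes called lower, 18 were called in all 13 alternatives that used all 8 arrays, and 31 in every run without 1 array. The count at 2-fold or more was 9 with no scaling and 0 on the spike-in scale, against 15. For all genes the share at that size was counted only in the reported setting (3.35%). Hmmr was the 1 gene called higher under quantile scaling, on the spike-in scale, in the authors' table, with the Xist class as a covariate and with array weights (1 each, against 0), and the runs without 1 array gave 0 to 1. On the spike-in scale, where the median of all genes was 0.33, the sign turned for Aurka (0.077), Ccnb1 (0.034), Cdk1 (0.40), Mad2l1 (0.25), Nuf2 (0.042) and Tpx2 (0.40), and none of these 6 passed. With no scaling it turned for Cdk1 (0.0035) and Tpx2 (0.051), and with probes above background on all 8 arrays for Cdk1 (0.043), where another probe stands for the gene. The cause of the other changes was not tested. Over all genes, the share of calls that were lower was 65.6%, and it was 41.6% with no scaling, 7.27% on the spike-in scale, 54.7% with no filter on dim probes (3815 lower and 3162 higher, against 3778 and 1979), 54.4% among the arrays of high Xist and 45% among those of low Xist. With the slide column as a block, which pairs 1 Control with 1 DTG array by position, 34 of the 41 genes were called lower. Ccnb1 and Aurka lost their calls, and 15.8% of all genes were called lower. The labels carry no replicate numbers and give no other pairing. Cenpf was not well above background on any DTG array, so signal over background limits its value to a bound.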
